A study of Homo sapiens with 31 samples.

Results

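HMGCS1 encodes the cytosolic HMG-CoA synthase, which joins acetyl-CoA to acetoacetyl-CoA at an early step of the mevalonate pathway to cholesterol. Hepatocytes make much of the body's cholesterol, and the genes of this pathway are switched on together by the SREBP transcription factors when sterols run low. The HMGCS1 transcript (Entrez gene ID 3157) is described here as a target of miRNAs in Huh-7.5 cells, an established human hepatoma line. Its members were all interactions that the deposited table assigns to the symbol HMGCS1, 40 of 32712. The gene was chosen by its measured values, namely its number of interactions and the reads of its strongest one, so its rank, its read counts and its leading miRNA are given as a description.

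The study cross-linked Argonaute (AGO) to the RNA it holds with ultraviolet light, purified AGO and sequenced that RNA. A miRNA joined end to end with the RNA fragment beside it is read as a chimera, which names both the miRNA and the region it lay on. The 31 libraries comprised 19 by standard AGO HITS-CLIP, from cells that were untreated (7), mock treated (4), given a locked nucleic acid against miR-122 (4) or given miravirsen, another miR-122 inhibitor (4). The other 12 were made by CLEAR-CLIP, 2 with added RNA ligase and 10 without it, from cells with endogenous, depleted (HSPC117 siRNA) or over-expressed HSPC117, a subunit of the tRNA ligase complex, and with RNase A at low or high concentration or RNase T1. All these groups were pooled in the table, so that no interaction can be placed in a library or a treatment. There are therefore no replicates, no test between groups was possible, and the depth behind a value is its number of chimeric reads. An interaction is a cluster of overlapping chimeras of 1 miRNA, and its reads (N) are the individually cloned chimeras in it. Intervals are 95% Wilson intervals and cover counting error only. The gene was chosen partly for the reads of its strongest interaction. No interval on a share of reads therefore measures a difference from other genes.

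HMGCS1 held 40 interactions with 26 miRNAs and 69 reads. By interactions it was at rank 16 of 7069 genes, between SOX5 with 41 and PACS1 with 39, and by reads at rank 7, whereas the median gene had 2 interactions and 2 reads. The labelled cell type was checked in the same table, where all 8 hepatocyte and hepatoma genes examined had interactions (212 in all, from 2 at TTR to 57 at AFP) and 0 of 8 genes of blood, fibroblasts, endothelium or brain had any. The count at TTR equals that of the median gene, and no share over all annotated genes was set beside these. All 40 HMGCS1 interactions lay on the minus strand of chromosome 5 (hg18), and 34 of them rested on a single read.

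A miRNA guides AGO mainly through its seed, bases 2 to 8 from the 5′ end, which pair with a complementary stretch of the target, and pairing of its 3′ part can add to this. miRNAs with the same seed form a family and can share sites. The sequences below are those of the miRNAs that lead the results, from RefSeq (GRCh38.p14), with the seed in capitals. The first 4 share 1 seed and are called the miR-17 seed family, the next 2 share another, and miR-19a-3p and miR-29b-3p have their own.
miR-17-5p: cAAAGUGCuuacagugcagguag
miR-20a-5p: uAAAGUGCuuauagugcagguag
miR-93-5p: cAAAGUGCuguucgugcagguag
miR-106b-5p: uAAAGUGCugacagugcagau
miR-92a-3p: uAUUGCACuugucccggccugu
miR-92b-3p: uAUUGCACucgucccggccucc
miR-19a-3p: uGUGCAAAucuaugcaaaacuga
miR-29b-3p: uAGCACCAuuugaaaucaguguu

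The strongest signal at HMGCS1 was 1 site contacted by 3 members of the miR-17 seed family. miR-17-5p had 20 reads in the target region chr5:43327603-43327677, miR-20a-5p had 5 reads in chr5:43327602-43327676 and miR-93-5p had 4 reads in chr5:43327583-43327657, all labelled intron. Each of the 3 regions was recorded with an 8mer, the longest of the canonical matches, in which bases 2 to 8 pair and an A stands opposite base 1. The matches began at positions 49, 48 and 29 of the respective 75-nucleotide regions, which is the same base of the genome, chr5:43327629, in all 3. The 29 reads of these interactions thus lay on a single 8mer, although the deposited regions began up to 20 nucleotides apart.

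The target bases can be read back from the deposited duplex maps, because each pair fixes the base opposite the miRNA. The site spans chr5:43327622-43327639 (minus strand, hg18) and is written 5′ to 3′ with the 8mer in capitals and n where a map leaves the base unpaired. The first line holds for miR-17-5p and miR-20a-5p alike, and the second is what the miR-93-5p map fixes.
HMGCS1 site from miR-17-5p and miR-20a-5p: uaccugcuagGCACUUUA
HMGCS1 site from miR-93-5p: uaccugcnngGCACUUUA
The A at the end follows from the 8mer label, and every other letter from a pair. Wherever 2 different miRNAs were mapped to the same base, their letters can be compared. At HMGCS1 the letters were equal at 74 of 74 such bases, and over all interactions at genes at 8617 of 8617. On this site miR-17-5p, miR-20a-5p and miR-93-5p have the same letters wherever they pair with the same base, so equality there was given in advance. Bases shared by miRNAs of unrelated sequence were not counted apart. How far these counts check the reading is therefore open.

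In the predicted duplex of miR-17-5p and of miR-20a-5p, positions 2 to 8 were paired, position 9 formed a G:U wobble and positions 10 and 11 were paired. Positions 12 to 15 were looped out of the miRNA, and positions 16 to 22 were again paired, so that 17 contiguous target bases took part and no target base was left out. miR-93-5p differs from miR-17-5p at 4 bases (U10G, A11U, C12U and A13C, counted from the 5′ end of miR-17-5p). Its loop ran from position 10 to position 15, opposite 2 unpaired target bases, and the 3′ block from 16 to 22 was the same. The minimum free energies, which RNAhybrid gives in kcal per mol for the predicted duplex, were -28.1, -28.1 and -27.4. The differences among the 3 miRNAs therefore fell in the loop and at the first base, C1U in miR-20a-5p, outside every pair except those at positions 10 and 11.

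**Figure D1:**
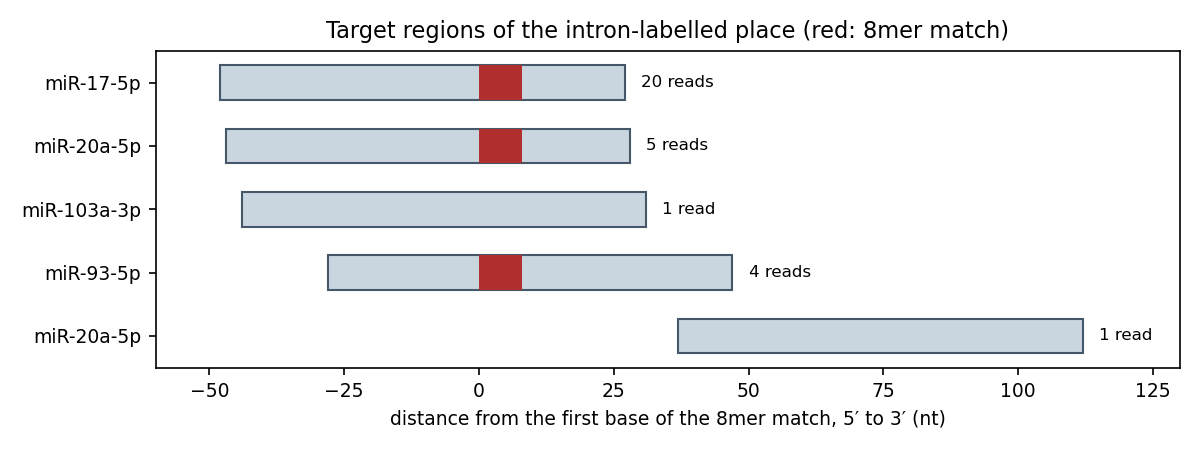
The 5 target regions (grey bars, 75 nucleotides each) of the place with the most reads, drawn 5′ to 3′ by distance in nucleotides from the first base of the 8mer, with the reads of each interaction at its right end. The 8mer (red) coincides in the regions of miR-17-5p (20 reads), miR-20a-5p (5 reads) and miR-93-5p (4 reads), the miR-103a-3p region (1 read) spans the same bases but has no match to the seed of miR-103a-3p, and the region of the second miR-20a-5p interaction (1 read) lies downstream of them.

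Among the miR-17-5p interactions of the whole table this duplex lay toward the stable end. Of 1053 canonical miR-17-5p interactions, 78 (7.41%) had an energy at or below -28.1, with a median of -22.7 and a lowest value of -35.9. Watson-Crick pairs at every position from 16 to 22 were present in 83 (7.88%) of the 1053 and in 13 of the 309 that had an 8mer. That block was chosen because this duplex has it, so its share is no measure of unusual 3′ pairing. Its number of auxiliary pairs, from position 9 on, was 10, near the mean of 9.33 ± 2.17 (SD, n = 1053). In reads it stood apart from the same 309, of which 253 had 1 read and the second highest had 9.

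Over the whole table the family's canonical matches fell on 1584 distinct bases. A base with 1 read can have only 1 member, and 1310 of them had 1 read. Of the 274 with at least 2 reads, 116 had 1 member and 158 at least 2, among them 23 with at least 3. Of those 23, 11 were labelled 3′-UTR and 3 intron, and 6 were 8mers. The HMGCS1 site had the most reads, 29, followed by sites in ARHGAP5 with 19 and VTA1 with 17. miR-20a-5p differs from miR-17-5p only at C1U and C12U. The authors' search for miRNAs in reads allowed 1 mismatch in an alignment seed of 8 bases, and for initial analyses a read that mapped to several miRNAs was given to one of them at random. The share of each member in the 29 reads is open to this, and its part in the split was not tested. miR-106a-5p, which differs from miR-17-5p at 1 base (C1A), had 0 interactions in the table.

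2 further interactions belonged to the same place, which is a set of target regions sharing at least 1 position. miR-103a-3p had 1 read in chr5:43327599-43327673 with no seed match. Its predicted duplex of 18 pairs ended directly beside that of miR-17-5p, with 0 paired bases in common and 0 bases between them. miR-20a-5p had a second interaction of 1 read in chr5:43327518-43327592, recorded with a mismatched 7mer-A1. Its predicted duplex lay downstream of that match and had an energy of -13.5. The place therefore held 5 interactions and 31 of 69 reads, 44.9% (interval 33.8 to 56.6), whereas it held 12.5% of the interactions (5.46 to 26.1). Among the 76 genes with at least 20 interactions, the share of reads in the single strongest interaction was 29.0% at HMGCS1, the highest of the 76, against a median of 7.28% and a next value of 24%. Outside the place, no interaction had more than 2 reads.

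Along the transcript the 40 target regions spanned 22881 nucleotides and merged into 21 places, of which 12 had 1 interaction and 9 had at least 2 miRNAs. By the deposited labels 13 interactions lay in the 3′-UTR, 13 in the coding sequence (CDS), 13 in introns and 1 across CDS and 5′-UTR. At other genes 17.7% of 21921 interactions were labelled 3′-UTR, 18.3% CDS and 55.7% intron, against 32.5% (20.1 to 48.0) for each at HMGCS1. Both exonic shares were higher at HMGCS1 and the intronic share lower, each resting on 13 interactions. Counted by reads the order changed, with 39 of 69 reads (56.5%) in introns, 15 in the 3′-UTR and 14 in the CDS. No interaction carried the 5′-UTR label alone, and 0 of 40 allows a share of up to 7.5% by the limit of 3 counts (8.76% by the Wilson interval), above the 0.953% of other genes.

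**Figure D2:**
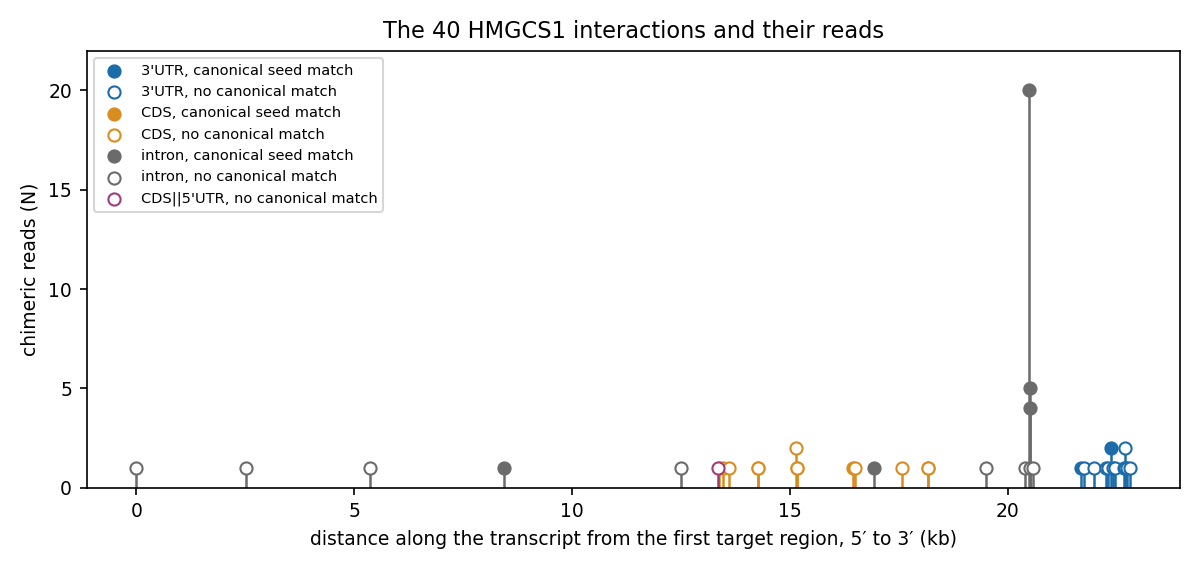
Chimeric reads (N, y axis) of the 40 HMGCS1 interactions against the distance in kb of each target region from the first one, in the direction of transcription, coloured by region label and filled where the seed match is canonical. A single intron-labelled place rises to 20 reads, and the interactions outside it have 1 or 2 reads each.

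The 3′-UTR interactions fell in 4 places within 1202 nucleotides. Of these places, 2 held 5 interactions each, as many as the place of the miR-17 site and more than any other. chr5:43325295-43325516 held miR-192-5p, miR-197-3p, miR-19a-3p and 2 interactions of miR-92a-3p, with 6 reads and no canonical match. chr5:43325631-43325915 held miR-455-3p, miR-423-5p, miR-29b-3p, miR-27a-3p and miR-16-5p, also with 6 reads, and a 7mer-m8 of miR-29b-3p (a match to bases 2 to 8 without the A). Of the other two, chr5:43326354-43326496 held an 8mer of miR-210 and a seedless interaction of miR-19a-3p, which had the weakest energy of the gene at -9.6. The remaining one held miR-483-3p alone. Members of the miR-17 seed family had no interaction labelled 3′-UTR.

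The CDS interactions were spread over 8 places. chr5:43332931-43333031 held miR-92a-3p (2 reads), miR-450a-5p and miR-26a-5p, chr5:43333830-43333912 held miR-24-3p and miR-16-5p, and chr5:43331611-43331732 held miR-181a-5p and miR-103a-3p. chr5:43329928-43330003 held miR-483-3p and miR-4279, and chr5:43334730-43334837, which included the region labelled CDS and 5′-UTR, held miR-130b-3p and miR-16-5p. None of these had an 8mer, and the 2 canonical matches were a 6mer of miR-483-3p and an offset 6mer of miR-181a-5p, with 1 read each.

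The intron interactions fell in 9 places, 8 of them with 1 interaction and 1 read. From the place of the miR-17 8mer it was 1021 nucleotides to the nearest target region labelled 3′-UTR downstream. The nearest target region labelled CDS was 2250 nucleotides upstream. Distances to annotated exons were not measured. Whether the RNA carrying it was a spliced exon not annotated as such was not tested. The remaining 8mer in an intron was that of miR-320a, with 1 read in chr5:43339655-43339729.

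Canonical seed matches, which run from the 8mer through both kinds of 7mer to the 6mer and its offset form, were present in 9 of 40 interactions, 22.5% (12.3 to 37.5), against 33% at other genes. They held 36 of 69 reads, 52.2% (40.6 to 63.5), against 34.6%. The difference between the counts by interactions and by reads came from the shared 8mer, since outside its place 7 of 38 reads (18.4%) were at canonical matches. Of the 9, 5 were 8mers, those of miR-17-5p, miR-20a-5p, miR-93-5p, miR-210 and miR-320a, and the 7mer-A1 was that of another miR-17-5p interaction in chr5:43331163-43331237. By region, 2 of 13 interactions in the 3′-UTR, 2 of 13 in the CDS and 5 of 13 in introns were canonical, where other genes had 42.0%, 32.2% and 30.7%. The 5 in introns count the shared 8mer 3 times.

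Imperfect seeds made up the bulk of the rest. A match with 1 mismatch was found in 19 of 40 interactions, 47.5% (32.9 to 62.5), against 29.3% at other genes, whereas by reads the shares were 29.0% (19.6 to 40.6) and 28.4%. A match with a bulge was found in 6 (15.0%, against 16.2%). No seed match was found in 5, 12.5% against 13.4%, and 1 had a match of 5 bases. The mismatch stood at miRNA position 3 in 5 interactions, at position 5 in 4 and at position 7 in 1. It was a G:U wobble in 4 of the 19, and at other genes in 16.4% of 6431.

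**Figure D3:**
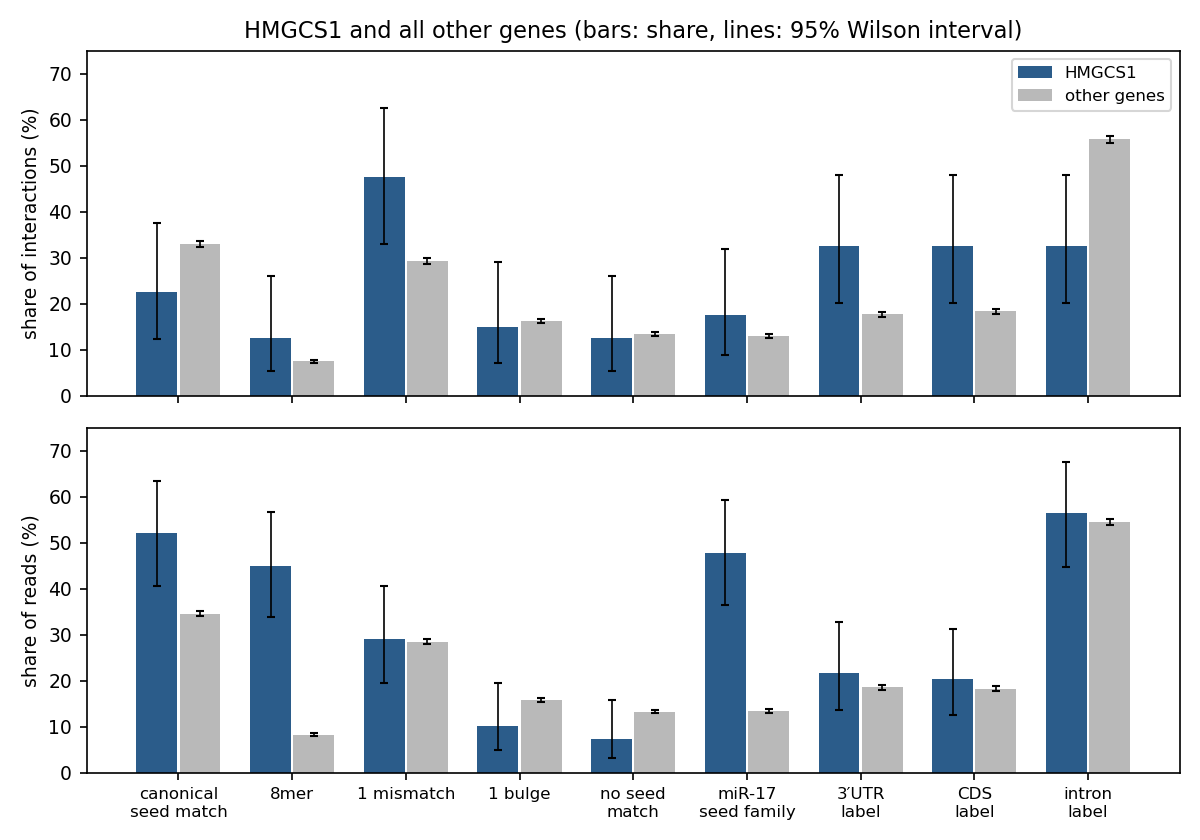
Shares of interactions (upper panel) and of reads (lower panel), in percent, for HMGCS1 (blue) and all other genes (grey), with 95% Wilson intervals as lines. The share with 1 mismatch was 47.5% at HMGCS1 and 29.3% at other genes by interactions, and 29.0% and 28.4% by reads. The share of the miR-17 seed family was 17.5% and 12.9% by interactions, and 47.8% and 13.5% by reads.

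Predicted pairing as a whole was close to that of other genes. The median energy was -19.4 (quartiles -24.1 and -15.7), against -19.5 (-23.4 and -15.9) over 21921 interactions. The mean number of paired auxiliary positions was 9.18 ± 2.11 (SD, n = 40) against 8.88 ± 2.54. The 9 canonical interactions had a median energy of -26.1 and 7.89 ± 1.83 auxiliary pairs, and the 31 others -18.3 and 9.55 ± 2.06. By position the seed was paired least often at position 2, in 20 of 40 duplexes, and in 32 to 36 at positions 3 to 8. The authors sorted duplexes into classes by k-means, and 9 of 40 (22.5%, interval 12.3 to 37.5) were in class 5A, which held 10.8% at other genes. These 9 include miR-17-5p and miR-20a-5p on the shared 8mer, whose predicted duplexes have the same pairs, so they are not independent. Class 6 held 5 of 40 (12.5%, 5.46 to 26.1) against 20.0%. The intervals of class 6 and of all remaining classes held the share at other genes. The intervals make no allowance for the number of classes looked at, so the value for class 5A is a description and no test.

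**Figure D4:**
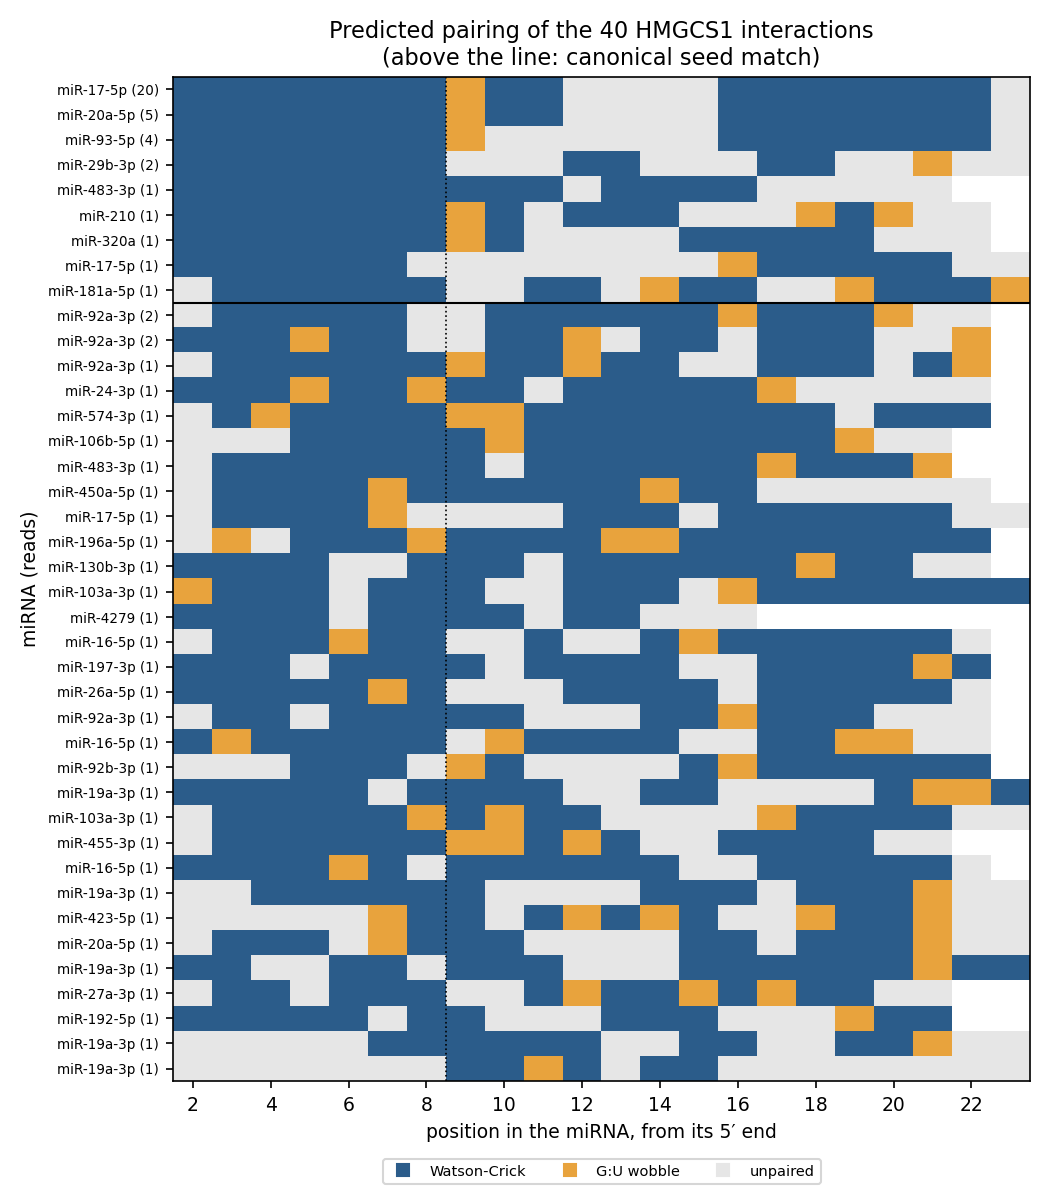
Predicted pairing of each of the 40 interactions (rows, with the miRNA and its reads) by position in the miRNA from its 5′ end, with Watson-Crick pairs in blue, G:U wobbles in orange, unpaired positions in grey and positions past the end of the miRNA in white. The 9 canonical interactions are above the line, the upper 3 rows share the 3′ block from position 16 to 22, and position 2 is paired in 20 of 40 rows.

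The interactions with 2 reads and those with extreme auxiliary pairing show how varied these duplexes were. Their target bases are written as above, with the bases opposite the miRNA seed in capitals.
miR-29b-3p, 3′-UTR, chr5:43325775-43325796: unnugnnnnucnnnnUGGUGCU
miR-92a-3p, CDS, chr5:43333003-43333026: gggcunnnngggacannnnUGCAA
miR-92a-3p, 3′-UTR, chr5:43325448-43325470: gnnggcnnnnnggngcaUGUAAU
miR-196a-5p, intron, chr5:43335649-43335674: cccaacaaugnnnnugannaGCUAnU
The miR-29b-3p site paired all 7 seed positions and 5 auxiliary ones, at -19.8. The miR-92a-3p site in the CDS (2 reads, -26.9) paired 5 seed positions and 11 auxiliary ones, with a mismatch at position 2. That in the 3′-UTR (2 reads, -19.2) was recorded with a bulged match, which its predicted duplex did not use. The duplex instead paired 6 seed positions without a bulge, at the bases in capitals, and 9 auxiliary ones. miR-196a-5p had the most auxiliary pairs, 14, beside 5 seed pairs, at -22.1 and 1 read. miR-4279, a miRNA of 16 bases, had the fewest, 4, in the CDS.

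Of the 26 miRNAs, 19 had a single interaction, and 23 were matched by name to RefSeq, with 19 seeds among them. The miR-17 seed family had 7 interactions, 17.5% (8.75 to 31.9) against 12.9% at other genes, and 33 reads, 47.8% (36.5 to 59.4) against 13.5%. Of the 33 reads, 29 lay on the shared 8mer, which includes the interaction the gene was chosen for. Of the 7, 6 were labelled intron and 1, that of miR-106b-5p without a seed match, CDS. Outside the strongest place the family kept 3 of 38 reads (7.89%). miR-17-5p itself had 3 interactions in 3 places with 20, 1 and 1 reads.

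miR-19a-3p was the miRNA with the most interactions, 5 in 5 places (2 intron, 1 CDS, 2 3′-UTR), each with 1 read. None was canonical, and the energies ran from -16.8 to -9.6. At other genes 16.3% of 814 miR-19a-3p interactions were canonical, with a median energy of -14.4. miR-92a-3p had 4 interactions, none canonical, with 6 reads in all and energies from -26.9 to -18.0, beside 27.7% canonical of 1048 at other genes. miR-16-5p had 3, none canonical, and miR-20a-5p, miR-103a-3p and miR-483-3p had 2 each. miR-17-5p, miR-19a-3p, miR-20a-5p and miR-92a-3p are all encoded in 1 cluster on chromosome 13, miR-92a-3p also at a locus on chromosome X that cannot be told apart from it by the mature sequence. They held 14 of the 40 interactions (35.0%, 22.1 to 50.5), against 20.2% for all miRNAs of that cluster at other genes. Without miR-92a-3p they held 10, for which no share at other genes was taken. Both counts include the shared 8mer under miR-17-5p and again under miR-20a-5p. This grouping was made after the values were seen. miR-18a-5p and miR-19b-3p of the same cluster had 0, beside 580 and 160 of the 32712 interactions of the whole table. At shares this low, 0 of 40 shows no difference. miR-122-5p, the predominant miRNA of hepatocytes and the one inhibited in 8 of the libraries, had 0 of 40 interactions, which allows a share of up to 7.5% by the limit of 3 counts (8.76% by the Wilson interval), where other genes had 3.31%. The depth at HMGCS1 cannot show a difference from that share.

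The rest of the mevalonate and cholesterol pathway had fewer interactions per gene. Counts were not scaled by the length or level of each RNA, whose part in these differences was not tested. Of 22 other synthesis genes, 15 had interactions, 57 in all with 71 reads, and 42.1% of these were canonical. MSMO1, a sterol methyl oxidase that acts late in the pathway, came next to HMGCS1 with 15 interactions and 22 reads, 7 of them canonical and 10 in the 3′-UTR. FDPS, which makes farnesyl diphosphate, had 5 with 7 reads, IDI1, the isopentenyl diphosphate isomerase, 4 with 5 reads, and LBR, a sterol reductase of the nuclear envelope, 4 with 6 reads. CYP51A1 and DHCR7 had 4 each and LSS had 3, all with 1 read.

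MSMO1 was the only other gene of the list at which 3 members of the miR-17 seed family shared a seed match. miR-17-5p (4 reads), miR-20a-5p (1 read) and miR-106b-5p (1 read) lay on the same 7mer-m8 in the 3′-UTR, and their energies were -25.4, -29.4 and -16.8. The miR-106b-5p region began at chr4:166483628, inside the site that the miR-17-5p map spans. Its predicted duplex could not reach the bases upstream, so its energy is not comparable with the others. The site, as the miR-17-5p map fixes it on the plus strand of hg18, is shown for comparison with that of HMGCS1.
MSMO1 site, 3′-UTR, chr4:166483622-166483640: cunncuguauunGCACUUU
Both sites hold the same 7 bases opposite the seed. Every match to the whole seed of this family has these bases by definition, so they show no further likeness of the sites. The 3′ pairing differed, with 9 auxiliary pairs for miR-17-5p at MSMO1 and 10 at HMGCS1.

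Of 15 genes of sterol regulation and transport, 10 had interactions, 48 in all. ABCA1, the cholesterol exporter, had 15 with 19 reads, 9 of them canonical. INSIG1, which holds SREBP back in the endoplasmic reticulum, had 8 with 3 canonical. MBTPS1, a protease that activates SREBP, and NPC1, which exports cholesterol from lysosomes, had 4 each, and INSIG2, a relative of INSIG1, had 3, all with 1 read. SREBF2 had 0 and SREBF1 had 1. No member of either list besides HMGCS1 had an interaction of more than 4 reads.

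By the counts of interactions per miRNA, the genes most like HMGCS1 among the other 75 with at least 20 interactions were XIST (cosine similarity 0.637), SOX5 (0.631) and FMNL2 (0.628), with a median of 0.454 over the 75. XIST shared 12 miRNAs with HMGCS1, 46.2% of the 26 at HMGCS1 and 37.5% of its own 32. SOX5 shared 12 of its 23 (52.2%) and FMNL2 10 of its 27 (37%). The points compared are counts from 1 pooled table, in which abundant miRNAs recur at every gene, so the values describe likeness of counts alone.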

How the data were processed

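The authors sequenced the AGO-bound RNA of 31 Huh-7.5 libraries and, per the labels, used CASAVA 1.8.2 and then Bowtie (version not given in the sources used here) against the hg18 genome. They sought a miRNA in each read with up to 1 mismatch in an alignment seed of 8 bases, collapsed duplicates and merged overlapping chimeras of the same miRNA. The deposited table gives for each interaction a count (N) of individually cloned chimeric reads, not normalized, and a deposited score, the minimum free energy from RNAhybrid. The unit of energy is not named in the table, and kcal per mol is that of RNAhybrid. Library depths are not in the table and were not used here. The annotation behind the gene and region labels was not named in those sources.

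Interactions were selected by gene symbol. The table's starts count from 0 (at 71 of 71 bases paired on both strands the letters were complementary under this reading), and coordinates are printed from 1. For all 188 clusters over 75 nucleotides the listed region began at the end next to the miRNA. Regions sharing at least 1 position were merged into places. Duplex maps start at miRNA position 2, and positions from 9 on counted as auxiliary. Target bases were read back from maps and RefSeq miRNAs by name for 36 of 40 HMGCS1 interactions. No test was run, because the table has no replicates and the gene was chosen on its values. Shares carry Wilson intervals, and a count of 0 also the limit of 3 counts of the total. Named with values were interactions of at least 2 reads, places with at least 2 miRNAs, 8mers, the most and fewest auxiliary pairs, and pathway genes with at least 3 interactions, some of which are not reported here; SREBF1, SREBF2, ARHGAP5 and VTA1 were added after their values were seen. The members, lists and alternatives were chosen with earlier results of these data known. The alternatives were weighting by reads, keeping at least 2 reads, 1 interaction per miRNA, other seed definitions, other rules for merging regions, Watson-Crick pairs alone, and, added after the data were seen, leaving out the place with the most reads. The merging and the intervals were tested on simulated data. The tools were pandas 2.3.3 and numpy 2.4.6 for tables, scipy 1.17.1 for intervals and matplotlib 3.10.9 for plots, in Python 3.11.15.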

Additional observations from a re-analysis of the deposited data

How the results depend on the processing

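Of 31 alternative values for 10 results, 19 stayed within the 95% interval or the spread of the reported value and 12 did not. Counting reads instead of interactions raised the canonical share from 22.5% to 52.2%, the share of the strongest place from 12.5% to 44.9%, the intron share from 32.5% to 56.5% and the miR-17 seed family from 17.5% to 47.8%, and moved the median energy from -19.4 to -26.1 and the rank from 16 to 7. With at least 2 reads, which left 6 interactions, the canonical share was 66.7% and the family share 50.0%. The family share was 7.5% with miR-17-5p alone and 8.57% without the strongest place. The canonical interactions alone had a median energy of -26.1, and without intron labels (27 interactions) the rank was 8. The number of places was 21, 30 with at least 38 shared positions and 18 with regions within 100 nucleotides merged. No interval is given here for this count, so placing both alternatives among the 19 does not show it to be stable. Without the strongest place HMGCS1 was at rank 22 by reads and 19 by interactions. No paired analysis was possible because the table names no sample. With 1 read behind 34 of 40 interactions, single interactions have no replicate check.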
